A study of Mus musculus with 4 samples.

Results

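Cadherins are membrane proteins that hold cells together through repeated, calcium-binding extracellular domains. The genes described here were the cadherin and protocadherin genes of the mouse array, chosen by symbol as those whose name begins with Pcdh, with Cdh and a number, or with Celsr. There were 73 such genes, read by 102 probes, among 24185 genes and 55681 probes on the array. Of these genes, 35 were clustered protocadherins (7 Pcdha, 22 Pcdhb and 6 Pcdhg genes) and 38 were non-clustered protocadherins, cadherins and Celsr genes. The rule used names only, but it was chosen with earlier results of these data known.

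The arrays measured RNA immunoprecipitation (RIP), in which an antibody on beads pulls a protein out of a lysate together with the RNA it carries. The protein was CPEB2, which belongs to a family that binds the cytoplasmic polyadenylation element (CPE), a uridine-rich motif of messenger RNA, and controls translation. Lysate of corticohippocampal tissue from 8-week-old male C57BL/6 mice was divided and kept for 3 h on beads with either CPEB2 IgG or control IgG, and 0.2 µg of the recovered RNA was labelled with Cy3 for each array. Each antibody had 2 arrays, numbered as experiments 1 and 2, and all 4 samples came from the same tissue, strain, sex and age. A fold change is thus the signal with CPEB2 IgG over the signal with control IgG of the same experiment, and it measures recovery on beads and not the level of an mRNA in the tissue. The labels did not say which animals went into each experiment, so p-values measured only the spread between these 4 samples. All arrays lay on 1 slide, with the arrays of each antibody side by side, so that antibody and slide position cannot be told apart.

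Classical cadherins (types I and II) join neighbouring cells by binding a like molecule on the other side and are anchored to actin by catenins. The clustered protocadherins are encoded in tandem arrays of variable exons, and each neuron uses a few of them, which gives neurons of 1 kind different surface identities. Transcripts of the Pcdha and the Pcdhg cluster end in shared constant exons, whereas each Pcdhb gene is a single exon of its own. The non-clustered delta-protocadherins are single genes with expression in particular circuits, and the Celsr genes encode the large, seven-pass cadherins of planar cell polarity.

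On the arrays, between 68.4% and 74.1% of the gene spots of each array were well above background and no spot was saturated. Markers of neurons, astrocytes, oligodendrocytes and microglia, 4 genes for each, were detected on all 4 arrays, and the liver markers Alb and Apoa1 were not. The summed signal of 4 meningeal and mural cell markers was 2779 and 2368 on the CPEB2 IgG arrays, against 1335 and 938 on the control arrays, and 3 of the 4 rose. The 4 astrocyte markers summed to 31599 and 29288 against 18918 and 14377, with 1 higher and 2 lower, and the 4 microglia markers to 7195 and 6293 against 11731 and 9882, also with 1 higher and 2 lower. The summed signal of the 4 choroid plexus and ependyma markers followed the experiment, with 7875 and 12222 in experiment 1 and 1086 and 714 in experiment 2 (CPEB2 IgG first). Of these 4 markers, 2 were called higher with CPEB2 IgG and 0 lower. Lysate was divided between the antibodies in each experiment, so sums that differ between antibodies do not describe the cells of the tissue. Between experiments, fewer cells of a type and less RNA per cell cannot be told apart in a bulk lysate. The part of cells other than neurons in the results was not tested.

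Probes of 60 bases read these genes, and a gene with several probes could give several answers. The middle 30 bases of probes for Cdh4 and Cdh11, encoding R-cadherin and cadherin-11, are shown because each of these genes gave its largest and a much smaller fold change from separate probes. In order, the brighter and the dimmer Cdh4 probe lay at chr2:179633818-179633877 and chr2:179630828-179630887 on the plus strand (mm9, as the array annotation lists the whole probe), and the brighter Cdh11 probe at chr8:105157473-105157532 on the minus strand. The dimmer Cdh11 probe was listed at chr8:105156895-105156927, a span of 33 bases for its 60.
Cdh4, brighter probe: aacagcacaaatattttgtattgtcgtttg
Cdh4, dimmer probe: tgaatttcttaccacaaaagcactgttaaa
Cdh11, brighter probe: acaaatatcagtattctgacatgtacgaaa
Cdh11, dimmer probe: atcacaacagactgaaacacaggatggtgt
The brighter probe of both genes had a GC content of 28.3%, and the dimmer ones had 35% in Cdh4 and 38.3% in Cdh11.

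In a DNA probe the CPE reads TTTTAT or TTTTAAT, neither of which contains the other. These letters stood in 7 of the 102 member probes (6.86%) and in 5.20% of the 33215 probes of all genes, and their reverse complement in 3.92% and 7.77%. Of the 65 tested genes, 6 held the motif in their brightest probe, with log2 fold changes of 2.60 (Pcdh8), 2.00 (Cdh12), 1.48 (Pcdh20), 1.25 (Pcdhac2), 0.36 (Pcdhb16) and 0.18 (Pcdhb13), of which the last 2 were not called. The 3 non-clustered ones are shown as 30 bases with the motif in capitals, and nothing on the motif and the fold change is read from this choice. Cdh12 encodes a type II cadherin of the brain, Pcdh8 the activity-regulated protocadherin arcadlin, and Pcdh20 a protocadherin outside the delta groups. Their whole probes were listed at chr15:21519202-21519261 on the plus strand, chr14:80166728-80166787 on the minus strand and chr14:88865889-88865948 on the minus strand (mm9).
Cdh12: gatcaaattacttggccttcattcTTTTAT
Pcdh8: tgctcattgggaTTTTATctttcaccagaa
Pcdh20: gcaagttttccgtgggTTTTATgttagcgt
A match is a description of these letters in a probe, and no match says only that they are not in that probe. Whether a probe lay in a coding exon or an untranslated region was not analysed here.

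Across the whole gene set, 65 genes had a probe well above background on at least 2 of the 4 arrays and were tested, with a fit across all 19698 such genes (limma, with the experiment as a block, Benjamini-Hochberg adjustment over all of them and a threshold of 0.05). Of the 65 genes, 25 rose with CPEB2 IgG (38.5%), 3 fell (4.62%) and 37 were not called. Over all genes tested, 21.2% rose and 20.4% fell. The median log2 fold change was 0.47 over the 65 genes and −0.11 over all genes. Values on the 2 CPEB2 IgG arrays lay apart from those on the 2 control IgG arrays for 45 of the 65 genes, against 71.9% of all genes tested, so this share was near that of the array. At the brightest probe of each gene, the rise was uneven between the classes. Of 30 clustered protocadherins, 5 rose (16.7%, below the 21.2% of all genes) and 1 fell (3.33%), with a median of 0.18. Of 35 non-clustered genes, 20 rose (57.1%) and 2 fell (5.71%), with a median of 1.57.

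**Figure D1:**
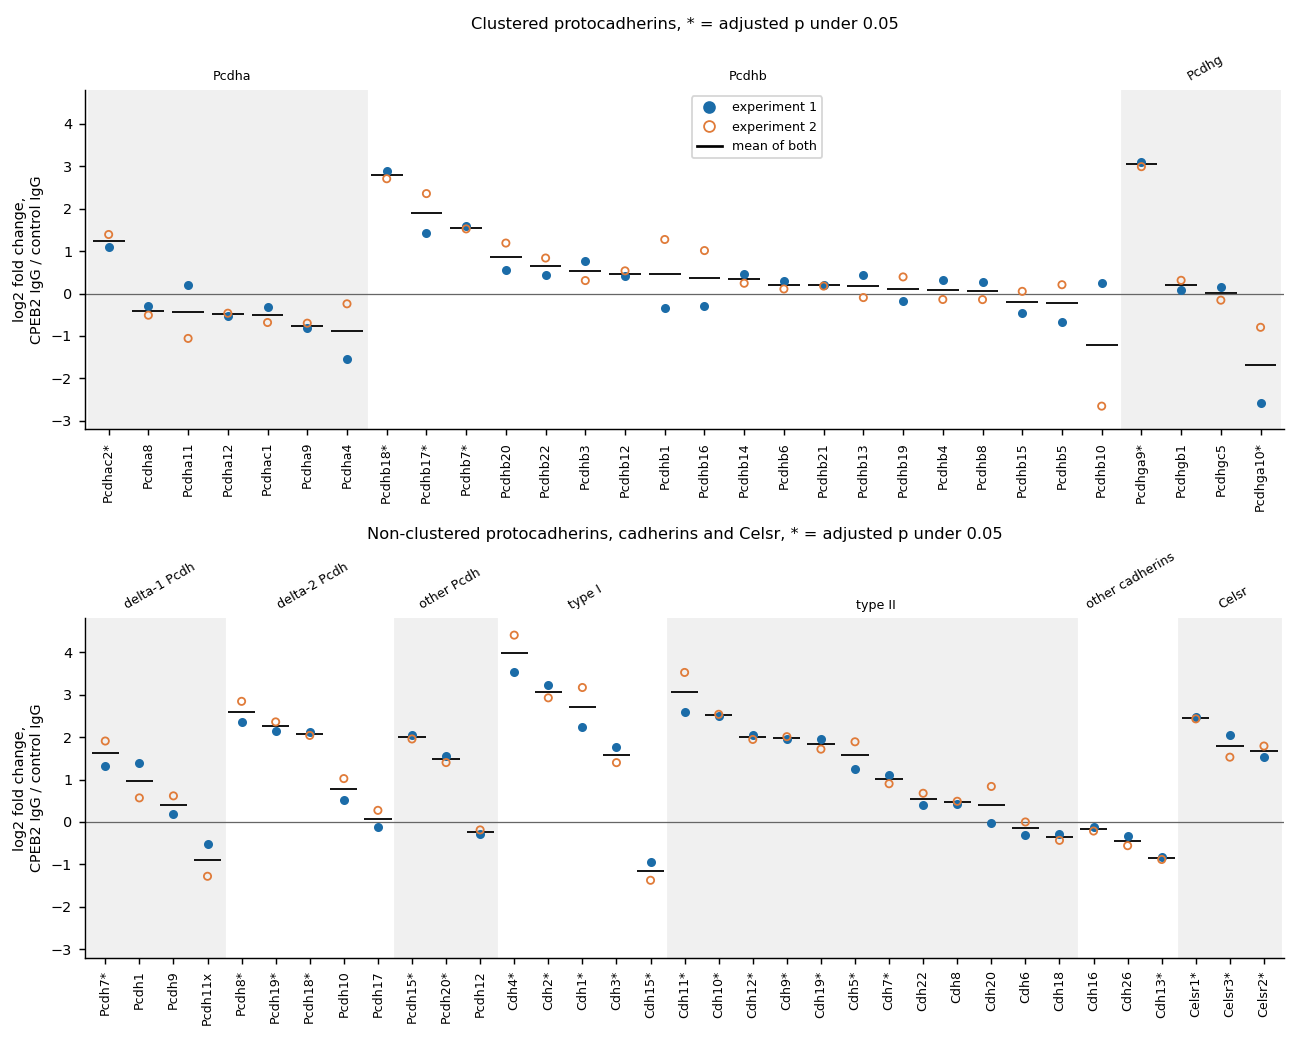
Log2 fold change of CPEB2 IgG over control IgG at the brightest probe of each tested gene, by class, with experiment 1 as filled points, experiment 2 as open points and their mean as a bar. Most Pcdha and Pcdhb genes lie within 1 log2 unit of 0, and most type I, type II, delta-2 and Celsr genes lie above 1.

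The median of the clustered genes lay below that of the non-clustered genes by 1.16 in experiment 1 and 1.21 in experiment 2 on the log2 scale, and the difference of the medians of the mean values was −1.39. This is a description and was given no test. Among the 4 clustered and 17 non-clustered genes with a signal above 1000 on an array the medians were 1.57 and 1.62, but several of these genes passed 1000 on the CPEB2 IgG arrays alone, so the limit itself favours genes that rose and nothing is read from these medians. The brightest probe of a gene was chosen on its mean over all 4 arrays, CPEB2 IgG included, which favours a probe that rose. Of the 35 clustered genes on the array 32 had a single probe, so this choice could act mainly on the non-clustered genes. With the mean of all detected probes in place of the brightest, the median of the non-clustered genes was 0.65, with 17 of 35 higher and 1 lower. That of the clustered genes remained at 0.18, with 4 of 30 higher and 1 lower.

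**Figure D2:**
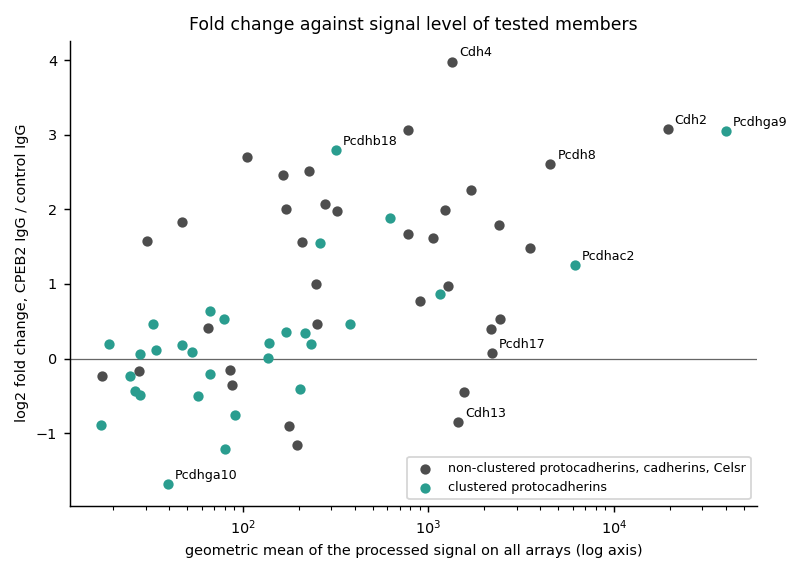
Log2 fold change of each tested gene against the geometric mean of its processed signal on the 4 arrays (log axis), with clustered protocadherins in green and the other genes in grey. Most clustered genes lie within 1 log2 unit of 0 at signals under 1000, and Pcdhga9 and Cdh2 lie near 3 at the highest signals.

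Across the 30 clustered genes, fold change and mean log2 signal correlated with r = 0.71 (Spearman's rho 0.65), and across the 35 non-clustered genes with r = 0.28 (rho 0.22). Fold change also went with the base composition of the probe, with r = −0.47 (rho −0.44) between probe GC content and log2 fold change across the 65 genes and −0.36 (rho −0.37) across all 19698. By class, r was −0.67 (rho −0.60) across the 35 non-clustered genes and −0.28 (rho −0.37) across the 30 clustered genes. These correlations run across genes of the same 4 arrays, which are not independent replicates. The part of GC content and of signal in the fold changes was not tested.

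Type I cadherins had the highest median log2 fold change of the classes, 2.70, with 4 of 5 genes higher and 1 lower. Cdh2, which encodes N-cadherin, the classical cadherin of synapses, had a processed signal of 63164 and 48736 in the CPEB2 precipitates and of 7156 and 6509 in the control precipitates. Both CPEB2 IgG arrays were far above both control arrays. Its log2 fold change was 3.08 ± 0.21 (SD, n = 2), an 8.43-fold rise (adjusted p = 0.00543), and a second probe gave 3.31. Cdh4, encoding R-cadherin, read 4989 and 5526 with CPEB2 IgG, against 452 and 265 with control IgG at its brighter probe, that is, 3.98 ± 0.61 on the log2 scale (adjusted p = 0.00543). At its dimmer probe the 4 signals were 1282 and 1236 against 634 and 404, and the log2 fold change was 1.37. Both probes thus rose without overlap, by unequal amounts.

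Cdh1 encodes E-cadherin, the cadherin of epithelia. It read 205 and 335 on the CPEB2 IgG arrays and 46.4 and 37.8 on the control arrays, and rose by 2.70 ± 0.66 on the log2 scale (adjusted p = 0.00615). Cdh3, encoding P-cadherin, read 98.5 and 27.2 with CPEB2 IgG, against 30.8 and 10.5 with control IgG, and was well above background on only 1 of the control arrays. Its signals overlapped between the antibodies, although each experiment gave a rise (1.76 and 1.40), and the call (adjusted p = 0.00974) was lost without the block. In the opposite direction, Cdh15 (M-cadherin, known from muscle) read 153 and 107 with CPEB2 IgG against 310 and 283, a fall of 1.16 log2 units (adjusted p = 0.0229).

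Of the 12 tested type II cadherins, which guide the sorting of neurons and their synapses, 7 rose and 5 were not called, with a median of 1.29. Cdh11 read 1690 and 2876 with CPEB2 IgG, against 295 and 254 with control IgG at its brighter probe. That probe rose by 3.06 ± 0.65 on the log2 scale (adjusted p = 0.0055). The dimmer Cdh11 probe read 107 and 171 against 165 and 140, overlapped between antibodies and gave −0.11, so the 2 probes of this gene disagreed. Cdh10 read 509 and 557 against 95.6 and 97.4, a log2 fold change of 2.52 ± 0.03 (adjusted p = 0.00543). Cdh12, whose probe with the CPE letters is shown above, read 2331 and 2482 against 597 and 655 and rose by 2.00 ± 0.07 (adjusted p = 0.00611). In both genes the 2 experiments were close to each other and the antibodies were well apart.

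The other type II genes that rose were Cdh9 (1.98), Cdh19 (1.83), Cdh5 (1.57) and Cdh7 (1.01). Cdh5 encodes VE-cadherin, the cadherin of endothelium. Beside it, the 3 detected endothelial markers summed to 1757 and 1693 with CPEB2 IgG, against 2344 and 1857 with control IgG. The last of the 4 listed markers, Tek, was not detected. Cdh7 was read by 3 detected probes, at 1.01, 0.64 and −0.05. Cdh8, which marks subsets of cortical and limbic neurons, read 265 and 316 against 208 and 229, and its log2 fold change of 0.46 (adjusted p = 0.174) did not pass. Cdh22, the brightest type II probe, read 3079 and 2662 against 2488 and 1692, with 0.53 (adjusted p = 0.138). Cdh18, Cdh6 and Cdh20 gave −0.35, −0.15 and 0.41 and were not called.

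Outside these types, Cdh13 fell. It encodes T-cadherin, which is held to the membrane by a lipid anchor and lacks the cytoplasmic tail that binds catenins. CPEB2 IgG gave 1109 and 1015 and control IgG gave 2068 and 1905, so that the log2 fold change was −0.85 ± 0.05 (adjusted p = 0.041), and the arrays of the antibodies did not overlap. Under centring of the arrays on their median, or by bins of probe GC, the fold change of Cdh13 was −0.62 and −0.50 and no longer passed (adjusted p = 0.136 and 0.115). Cdh26 read 1441 and 1201 against 1923 and 1799 (log2 fold change −0.45, adjusted p = 0.192). Cdh16, known from kidney, gave −0.17 and was not called.

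All 3 Celsr genes rose. Celsr1 read 440 and 327 with CPEB2 IgG, against 83.5 and 61.6 with control IgG, a log2 fold change of 2.46 ± 0.04 (adjusted p = 0.00543). Celsr3, which is needed for the growth of forebrain axon tracts, read 4671 and 4076 against 1195 and 1436 and rose by 1.79 ± 0.37 (adjusted p = 0.00855). Celsr2 read 1309 and 1419 against 478 and 417 at its brighter probe, with a rise of 1.66 ± 0.18 (adjusted p = 0.00825). A second Celsr2 probe read 239 and 164 against 191 and 218 and gave 0.01. Thus the rise of Celsr2 was seen at 1 of its 2 probes.

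**Figure D3:**
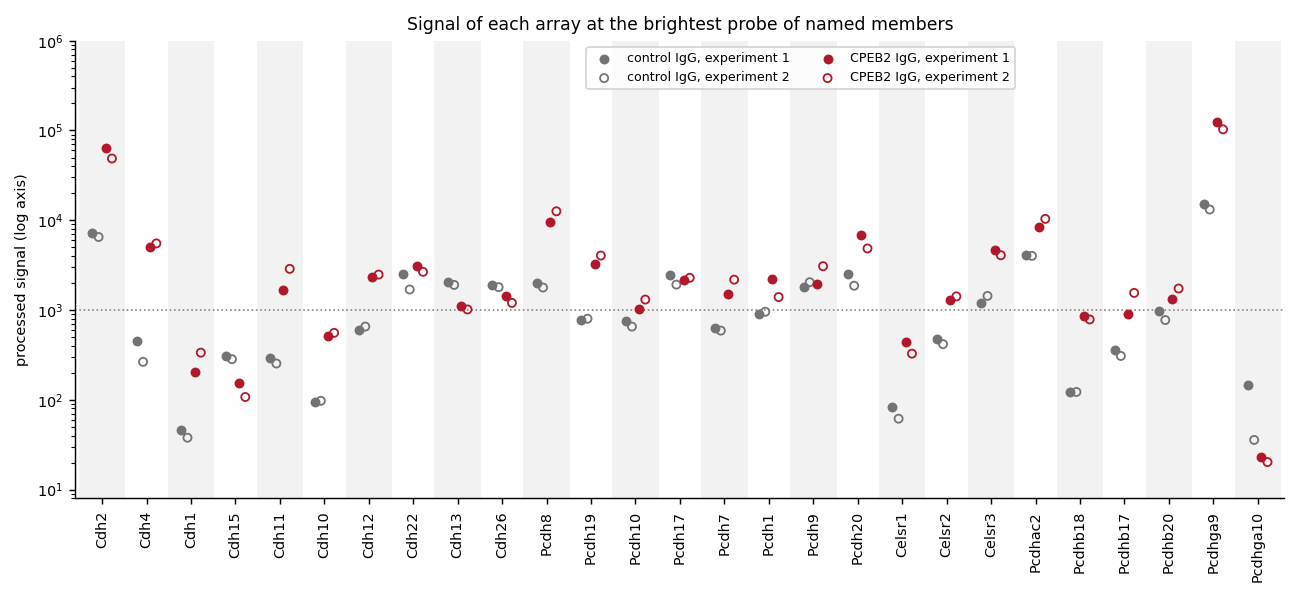
Processed signal (log axis) of each array at the brightest probe of 27 named genes, with control IgG in grey and CPEB2 IgG in red, experiment 1 filled and experiment 2 open, and a dotted line at 1000. The red points of Cdh2, Cdh4, Cdh11, Pcdh8 and Pcdhga9 stand far above the grey ones, those of Cdh13 and Cdh15 stand below, and those of Pcdh17 and Pcdh9 mix with them.

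Among the delta-2 protocadherins, some of which recruit the actin-regulating WAVE complex through their cytoplasmic tails, 3 of 5 rose and 2 were not called. Pcdh8, the arcadlin gene whose probe is shown above, read 9609 and 12589 with CPEB2 IgG, against 1981 and 1781 with control IgG, a log2 fold change of 2.60 ± 0.34 (adjusted p = 0.00543). Pcdh19, known from an inherited epilepsy of girls, read 3266 and 4043 against 779 and 800 and rose by 2.26 ± 0.15 (adjusted p = 0.00556). Pcdh18 read 615 and 504 against 151 and 125, with 2.08 ± 0.05 (adjusted p = 0.00582). In these 3 genes every CPEB2 IgG array exceeded every control array by a wide margin.

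Pcdh10, which acts in the removal of synapses, read 1026 and 1307 with CPEB2 IgG, against 758 and 654 with control IgG. It gave 0.77 ± 0.36 on the log2 scale (adjusted p = 0.0699, and 0.0484 without the block), but −0.046 once the arrays were centred by GC bin. A second Pcdh10 probe of similar brightness gave 0.00. Pcdh17, a protocadherin of corticobasal ganglia circuits, read 2146 and 2286 against 2479 and 1921. Its arrays overlapped, and its log2 fold change was 0.07 ± 0.28 (adjusted p = 0.83).

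The delta-1 genes were mixed. Pcdh7 rose, with 1514 and 2180 against 637 and 590 (log2 fold change 1.62 ± 0.41, adjusted p = 0.0111), but 2 further probes of it gave −0.05 and −0.30. Pcdh1 read 2194 and 1395 against 892 and 957 (0.97 ± 0.58, adjusted p = 0.0557, and 0.0496 without the block), and its second probe gave −0.27. Pcdh9, bright in both precipitates, read 1934 and 3078 against 1805 and 2042, overlapped between antibodies, and gave 0.40 ± 0.31 (adjusted p = 0.261). Its 2 other probes gave −0.61 and −0.06. For Pcdh11x, the brightest probe read 152 and 107 against 230 and 265 (−0.90 ± 0.54, adjusted p = 0.0648, and 0.0486 without the block), whereas a second probe read 176 and 124 against 48.3 and 37.2 and gave 1.86, and another gave −0.16. No single direction can be given for Pcdh11x from these probes.

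Of the other non-clustered protocadherins, Pcdh20 and Pcdh15 rose and Pcdh12 was not called (−0.23). Pcdh20 read 6927 and 4850 with CPEB2 IgG against 2504 and 1867, with a log2 fold change of 1.48 ± 0.11 (adjusted p = 0.0101). Pcdh15, known for the tip links of hair cells, read 350 and 323 against 89.1 and 84.5 at its brightest probe (2.01 ± 0.07, adjusted p = 0.00606). The 3 other detected Pcdh15 probes gave 0.67, −0.05 and −0.12.

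**Figure D4:**
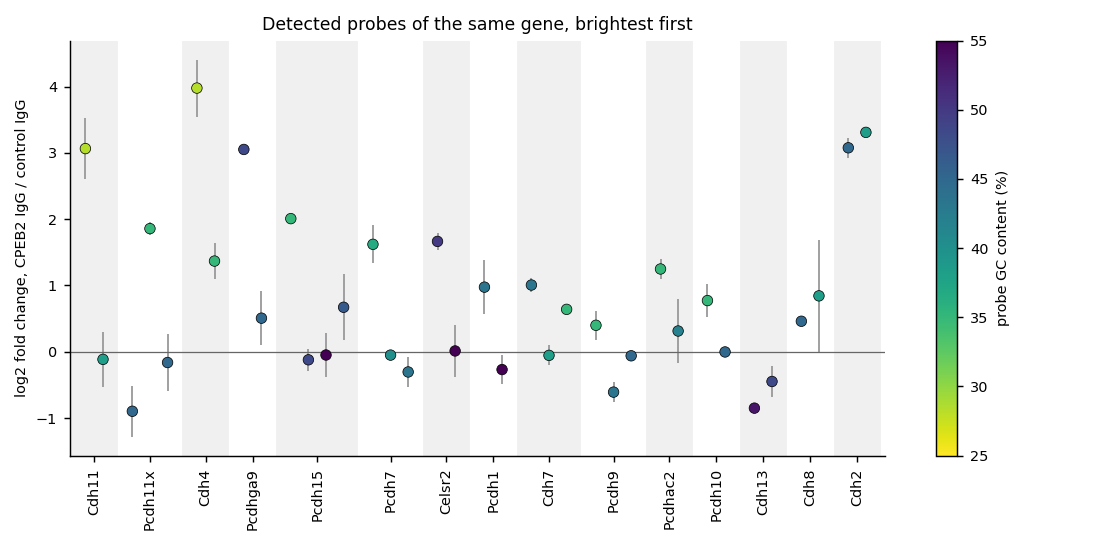
Log2 fold change at each detected probe of the 15 genes with several detected probes, brightest probe first within a gene, with points for the mean, lines joining the 2 experiments and colours for probe GC content. The probes of Cdh2 agree, whereas those of Cdh11, Pcdh11x, Cdh4 and Pcdhga9 lie more than 2 log2 units apart.

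Of the 15 genes with several detected probes, 7 had probes on both sides of 0 and more than 1 log2 unit apart (Cdh11, Cdh7, Pcdh1, Pcdh11x, Pcdh15, Pcdh7 and Pcdh9). The most 3′ probe had the highest fold change in 10 of the 15 genes (66.7%), close to the 67.6% of 5411 genes with several probes at listed positions, so the genes described here did not stand apart from the array in this respect. The most 3′ probe was also the brightest in 8 of the 15 genes (53.3%, against 64.2%). In Cdh7, Cdh11, Cdh13, Pcdh1 and Pcdh10 the most 5′ probe had a higher fold change and lower GC content than the most 3′ probe. The outermost detected probes of a gene lay between 173 (Cdh2) and 614488 bases (Pcdh11x) apart on the genome. Whether they read different transcripts was not tested.

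In the Pcdha cluster, 1 of 7 genes rose (14.3%, beside 21.2% of all genes tested) and 6 were not called, with a median of −0.49. The gene that rose was Pcdhac2, a C-type isoform expressed broadly among neurons. Its brightest probe read 8405 and 10365 with CPEB2 IgG, against 4140 and 4014 with control IgG (1.25 ± 0.20 on the log2 scale, adjusted p = 0.0166). This call, the single one in the cluster, was lost with the arrays centred by GC bin (0.43, adjusted p = 0.157) and with the mean of its probes (0.78, adjusted p = 0.0768). The accession list of this probe also named Pcdha4, Pcdha9 and Pcdhac1, so that it cannot be credited to Pcdhac2 alone. A second Pcdhac2 probe, listed for that gene only, read 24.3 and 45.0 against 28.9 and 26.4 and gave 0.31. The other 6 genes, each an alternative first exon of the cluster, gave between −0.89 (Pcdha4) and −0.41 (Pcdha8, whose probe was also listed for Pcdha4 and Pcdha7), and 5 of them were below 0 in both experiments. Their signals were low, as with Pcdha9, at 68.7 and 68.0 against 128 and 112 (−0.76, adjusted p = 0.0556, and 0.0336 without the block). Leaving out the probes listed for several genes, the 6 genes that remained had a median of −0.50.

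In the Pcdhg cluster, 1 of 4 tested genes rose and 1 fell (25% each, beside 21.2% and 20.4% of all genes tested). Pcdhga9, named for the brightest probe of the set, read 125086 and 103015 with CPEB2 IgG, against 15334 and 13166 with control IgG, and rose by 3.05 ± 0.08 on the log2 scale (an 8.29-fold rise, adjusted p = 0.00543). Both of its probes were listed for other Pcdhg genes too, the brighter one also for Pcdhga1, Pcdhga5 and Pcdhga6. Its second probe read 2941 and 2808 against 2898 and 1520 and gave 0.51. Pcdhgc5, a C-type isoform, gave 0.00 and Pcdhgb1 gave 0.20, neither called. Pcdhga10 was called lower, with 23.1 and 20.2 against 146 and 35.7 (−1.69 ± 1.26, adjusted p = 0.0449). That call was lost without the block (adjusted p = 0.104), and without control array 1 the log2 fold change was −0.70 (adjusted p = 0.212).

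Of the 19 tested Pcdhb genes, 3 rose (15.8%, beside 21.2% of all genes tested) and 16 were not called, with a median of 0.35. Pcdhb18 read 858 and 785 with CPEB2 IgG, against 123 and 122 with control IgG, a log2 fold change of 2.79 ± 0.12 (adjusted p = 0.00543). Pcdhb17 read 895 and 1552 against 355 and 308 and rose by 1.89 ± 0.66 (adjusted p = 0.0117). Pcdhb7 read 379 and 510 against 134 and 180, with 1.56 ± 0.05 (adjusted p = 0.00887). With the arrays centred by GC bin, Pcdhb7 gave 0.74 and was no longer called (adjusted p = 0.0875). Each of these 3 single-exon genes had both CPEB2 IgG arrays above both control arrays. Pcdhb20, the brightest of the cluster, read 1339 and 1736 against 971 and 773 and gave 0.87 ± 0.45 (adjusted p = 0.0609, and 0.0419 without the block). The remaining 15 Pcdhb genes lay between −1.21 and 0.64, and 10 of the 19 Pcdhb genes had signals under 100 on both CPEB2 IgG arrays. The lowest, Pcdhb10, rested on a single array: it read 51.4 and 52.0 with CPEB2 IgG, against 46.2 and 333 with control IgG.

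The 8 genes without a test were Pcdhb2, Pcdhb9, Pcdhb11, Pcdhga1, Pcdhga5, Cdh17, Cdh23 and Cdh24. Their probes were well above background on at most 1 array, with signals between 3.29 and 46.1. All 73 symbols of the array were found in the RefSeq gene table (GRCm38.p6), which holds 96 symbols under the same rule, and the missing ones were 7 Pcdha and 16 Pcdhg genes.

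The study kept transcripts above a fold change of 1.5 and a raw signal of 1000. Here they were applied to the mean fold change of the 2 experiments and to any probe of a gene. The limit of 1000 was set on the processed signal of a CPEB2 IgG array, which is background-corrected, in place of raw signal. Under this reading of those limits, 16 of the genes passed, 4 clustered and 12 non-clustered, against 13.9% of all 24164 genes. With the fold change required in each experiment, 13 passed. Of the 16, 13 were also called by limma, and the other 3 were Pcdhb20, Pcdh1 and Pcdh10. The 12 called genes that did not pass had signals of at most 1000, among them Celsr1, Cdh10 and Pcdhb18. The presence of a CPE in the 3′-UTR, the last requirement of the study, was not applied here.

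Of the 25 genes called higher, 20 were called when any 1 of the 4 arrays was left out, and Cdh3, Cdh7, Pcdh20, Pcdhac2 and Pcdhb7 were not in all 4 cases. The 3 lower calls were less stable: Cdh13 and Cdh15 were not called without either control IgG array (adjusted p = 0.15 and 0.124 for Cdh13, and 0.0826 and 0.0673 for Cdh15, without arrays 1 and 2). Pcdhb10 was called lower without control array 1 (adjusted p = 0.00534) and Pcdhga10 without control array 2 (adjusted p = 0.00632), each resting on the remaining control array, so that the count of lower calls was 1 in both cases. The fits with an array left out also dropped the experiment block, so a call lost in them can come from either change. Cdh3 and Pcdhga10 lost their calls without the block on all 4 arrays too. For 2 arrays of each antibody, the smallest p of an exact permutation test on a single gene is 0.333, and the calls rest on the spread that limma shares across genes.

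Cadherins act with catenins, proteases and kinases, and 52 such genes, listed by function, were set beside them. Of 49 tested, 18 rose, 4 fell and 27 were not called, with a median of 0.36. These shares are 36.7% and 8.16%, beside 21.2% and 20.4% over all genes tested. On the list of catenins and the adaptors linked to them, 3 of 12 rose (Ctnnd1 and the adaptor genes Vcl and Plekha7) and 2 fell (Ctnna2 and Arvcf), which is near the shares over all genes. The 2 detected probes of Vcl disagreed, at 1.30 and −1.17. Ctnna2, the neuronal alpha-catenin, read 3881 and 3924 with CPEB2 IgG, against 9429 and 8728 with control IgG and fell by 1.16 log2 units (adjusted p = 0.018). Arvcf, of the p120-catenin family, read 192 and 139 against 395 and 346 (−1.12, adjusted p = 0.0223). Ctnnb1, encoding beta-catenin, read 6741 and 9008 against 5681 and 4754 (0.64, adjusted p = 0.123), and Ctnnd2, encoding delta-catenin, read 11435 and 10878 against 12462 and 10212, overlapped, and gave 0.04 (adjusted p = 0.912). The highest catenin was Ctnnd1, encoding p120-catenin, with 6093 and 5438 against 1438 and 1302 (2.13, adjusted p = 0.00568).

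**Figure D5:**
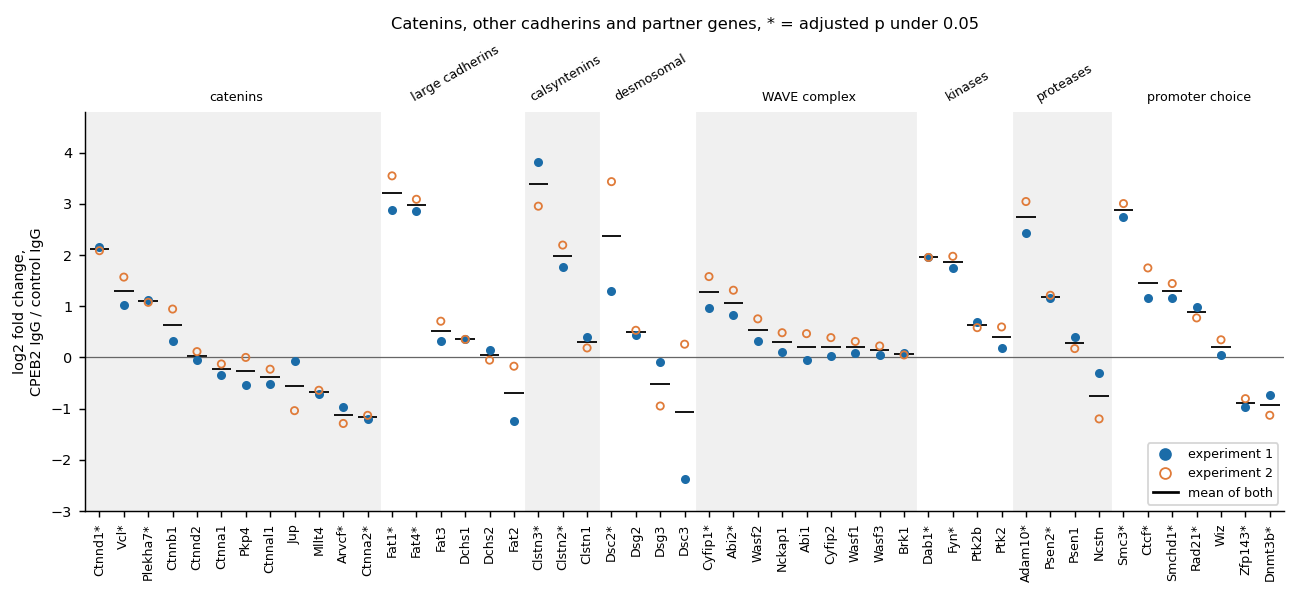
Log2 fold change of CPEB2 IgG over control IgG for the 49 tested partner genes by functional list, with experiment 1 as filled points, experiment 2 as open points and their mean as a bar. Fat1, Fat4, Clstn3, Adam10 and Smc3 lie near 3, most WAVE complex genes lie within 1 log2 unit of 0, and Ctnna2, Arvcf, Zfp143 and Dnmt3b lie near −1.

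The large cadherins Fat1 and Fat4 rose and the other 4 on that list were not called. Fat1 read 5427 and 5198 against 776 and 452 (3.22 ± 0.47 on the log2 scale, adjusted p = 0.00543), and Fat4 read 367 and 472 against 53.8 and 56.4 (2.97, adjusted p = 0.00543). The synaptic calsyntenin Clstn3 read 59070 and 29605 against 4466 and 3883 and rose by 3.38 ± 0.60 (adjusted p = 0.00543). Adam10 encodes the protease that sheds N-cadherin and protocadherins from the membrane, and it read 7117 and 11366 against 1397 and 1399 (2.74 ± 0.43, adjusted p = 0.00543). In each of these genes both CPEB2 IgG arrays were several-fold above both control arrays. Of the 9 WAVE complex genes, 2 rose and 7 were not called, with a median of 0.21, a share near the 21.2% of all genes.

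Promoter choice in the protocadherin clusters depends on CTCF and cohesin, and their silencing on DNA methylation and Smchd1. Of 7 genes on this list, 4 rose, 2 fell and 1 was not called, beside 21.2% higher and 20.4% lower over all genes. Among those that rose, Smchd1 had 2 detected probes that disagreed, at 1.30 and −2.16. Smc3, a cohesin subunit, read 19402 and 20103 against 3072 and 2545 (2.87 ± 0.19, adjusted p = 0.00543). Zfp143, a factor of chromatin loops, read 83.1 and 94.6 against 171 and 168 (−0.88, adjusted p = 0.0382). Dnmt3b, a DNA methyltransferase, read 336 and 231 against 595 and 513 at its brightest probe (−0.94, adjusted p = 0.0383), but another of its 3 probes gave 3.62. Without control IgG array 1 or 2 the partner genes called lower fell from 4 to 0, with 5 and 4 at an unadjusted limma p under 0.05.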

How the data were processed

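The authors deposited 1 scanner file per array, written by Agilent Feature Extraction 10.5.1.1 from 1-colour arrays, and its values are spot intensities after background correction by that software, with no scaling between arrays. Probe positions and gene names are those of the array annotation (mm9). RNA was amplified with the Low Input Quick-Amp kit per the labels. One text field of the CPEB2 samples names CPEB3 IgG, whereas their titles give CP2 IgG and the protocol names CPEB2, and samples were grouped by title. From the deposited intensities, log2 of the processed signal minus the 75th percentile of each array was computed, flagged spots were dropped, with 66 probes that then had no spot on some array (55615 kept), and the brightest probe stood for a gene if well above background on at least 2 arrays. limma 3.58.1 (R 4.3.3) was fitted to all 19698 genes with the experiment as a block, which leaves 1 residual degree of freedom. The pairing comes from the methods, where lysate was divided between the antibodies in each of 2 experiments. Same-numbered arrays deviated together from their group means (correlation 0.203 across genes). The fit was also run on simulated data with independent noise and no experiment effect, which cannot check the pairing in these arrays.

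Members, classes and partner lists were chosen with earlier results of these data known. Named in each class were up to 3 called genes in each direction with the largest change, the brightest gene, 12 genes set by name and genes whose probes lay on both sides of 0 by over 1 log2 unit between them. Other genes given with values complete a class or a count, and were picked with their values in view. Alternatives were no scaling, median centring, quantile normalization, normexp (offset 50), another percentile, flagged spots kept, centring within 10 GC bins, other probe filters and combinations, no block, an intensity trend, other thresholds and each array left out. The limma fits with an array left out had no block. The authors' supplementary lists were not used. The number of arrays limits the precision.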

Additional observations from a re-analysis of the deposited data

How the results depend on the processing

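The count of genes of the set that rose (25 of 65 tested) lay between 17 and 29 over the alternatives run. The 29 were of 65 tested. The 17 were of only 21 genes with a processed signal above 1000 on 1 array, a limit that favours genes that rose. The count past the study's limits (16) lay between 12 and 21. The genes that fell (3 of 65) numbered 5 of 65 with no scaling and 5 of 60 with probes detected on all 4 arrays. They numbered 1 of 73 with no filter on dim probes and 1 of 21 with a processed signal above 1000 on 1 array. Among the partner genes, those that fell (4 of 49) numbered 2 of 49 with median centring and with the mean of probes. They numbered 1 of 52 with no filter and 1 of 29 with a signal above 1000. The partner genes that rose (18 of 49) numbered 9 of 52 with no filter. Leaving out each array in turn gave 22 to 27 genes of the set higher and 1 to 3 lower, and 12 to 17 partner genes higher and 0 to 5 lower. Leaving out either experiment gave 13 to 17 genes past the limits. The clustered minus non-clustered median (−1.39) was −1.17 with quantile normalization, −0.82 with normexp, −1.28 within GC bins, −0.47 with the mean of probes, −1.07 with no filter, −0.052 with a signal above 1000, −0.97 with a signal above 200 (added after seeing the data; like the limit of 1000, it favours genes that rose), and −1.21 to −1.16 with either experiment left out. The last 2 and the mean value differ because medians do not average. The cause of the other changes was not tested.

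Without the replicate block that pairs the arrays of each experiment, 27 genes of the set rose and 4 fell, and 18 partner genes rose and 5 fell. Of the 65 tested genes, 5 gained a call (Pcdhb20, Pcdh1 and Pcdh10 higher, Pcdha9 and Pcdh11x lower) and 2 lost theirs (Cdh3 and Pcdhga10).

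Signs turned for genes near 0 or with unlike probes. Centring within GC bins gave −0.046 for Pcdh10, −0.42 for Pcdh9, −0.74 for Pcdh17 (adjusted p = 0.0478 in limma) and −0.18 for Ctnnb1. The mean of probes gave 0.27 for Pcdh11x, −0.090 for Pcdh9 and 1.20 for Dnmt3b. Pcdh17 was −0.054 with quantile normalization and −0.033 with the percentile over probes detected on all arrays. Ctnnd2 was −0.016 with no scaling, −0.040 with normexp and −0.071 with that percentile. The median of all genes moved by 0.23 with median centring, 0.13 with quantile normalization and −0.11 with the other percentile. No probes of different members shared 20 bases, so leaving such probes out changed nothing. Of the 30 tested clustered genes, 3 (Pcdha11, Pcdha4 and Pcdhgb1) were not well above background on all 4 arrays, which limits their values.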

Other observations

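Some array entries name a cadherin or protocadherin in their description but not by the symbols used above. Cdhr2, a cadherin-related gene known from brush borders, read 1564 and 1163 in the CPEB2 precipitates and 3163 and 3119 in the control ones, with log2 fold changes of −0.93 and −1.40 in the 2 experiments. Cdhr1, a cadherin of photoreceptors, read 547 and 600 in experiment 1 and 63.5 and 79.1 in experiment 2 (CPEB2 IgG first), so its signal followed the experiment more than the antibody. An entry described as protocadherin alpha C1 read 50.7 and 31.1 against 165 and 137, with a mean log2 fold change of −1.87, against −0.50 at the probe named Pcdhac1. An entry described as a protocadherin gamma-B5-like transcript read 345 and 315 against 303 and 279, with 0.23. These entries were given no test.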
